A study of Canis lupus familiaris with 6 samples.

Results

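Tumor cells can draw in and expand myeloid suppressor cells through secreted growth factors and lipid mediators, and 10 genes of this kind were followed in canine mammary tumor cells: the myeloid growth factors CSF1, CSF2, CSF3 and KITLG, the prostaglandin synthesis genes PTGS1, PTGS2 and PTGES, the cytokine MIF, and the arginine-consuming enzymes ARG1 and NOS2. Their probes were found by symbol, and the 10 genes were chosen with earlier results of these data known. Of the 35581 gene names or identifiers and 43603 non-control probes on the array, 16 carried 9 of these symbols exactly, and 1 more, written in lower case on the array (mif), was the only one for MIF, which makes 17 probes for 10 genes. Where a gene had several probes, the brightest over all 12 channels is described and the others are set beside it.

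Cells came from 3 established lines of canine mammary tumors, P114 (an anaplastic cancer), CMT-U27 (a simple carcinoma) and CMT-U309 (a spindle cell mammary tumor), all kept in RPMI-1640 with fetal bovine serum. Each line was grown alone (monoculture) or together with myeloid-derived suppressor cells (MDSCs), immature myeloid cells that dampen T cell responses, sorted from healthy dogs' blood as CD11b+/Gr1+/CD33+ and placed in an insert above the tumor cells. The sample descriptions give at least 72 h of co-culture and the study's methods a shorter time. RNA of both conditions of 1 line was labelled with 2 dyes, Cy5 and Cy3, and put on the same array, and a second array carried the same 2 RNAs with the dyes exchanged, so there were 6 arrays, 12 channels and 6 RNAs. An exchanged pair of arrays was counted as 1 replicate, n is 3 cell lines for the effect of co-culture, and each line is 1 established line with 1 RNA for each condition. The 2 arrays of a line shared a slide that held no other line, so slide and line cannot be told apart in any comparison of lines.

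Colony-stimulating factors are secreted proteins that carry bone marrow precursors along the myeloid lineage: CSF1 acts on monocytes and macrophages, CSF2 on granulocytes and macrophages, CSF3 on neutrophils, and KITLG (stem cell factor) on early progenitors through the receptor KIT. The cyclooxygenases PTGS1, usually present at a steady level, and PTGS2, the inducible form, turn arachidonic acid into prostaglandin H2, which PTGES converts to prostaglandin E2, a mediator known for raising myeloid suppressor cells in tumors. MIF binds CD74 and is secreted by many tumor cells. ARG1 and NOS2 use up arginine, and suppressor cells themselves are known to use both against T cells.

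The arrays differed in quality, and this touches the co-culture ratios most. Between 53.0% and 81.0% of probes were well above background in a channel, as Feature Extraction flags it, and the channel with the fewest was co-cultured CMT-U309 in Cy3. Across the 40873 probes tested, the log2 ratios of the 2 arrays of a line, both turned to co-culture over monoculture, correlated at 0.26 in CMT-U27, at -0.09 in CMT-U309 and at -0.39 in P114. The P114 array with co-culture in Cy5 also ran against the P114, CMT-U27 and CMT-U309 arrays with co-culture in Cy3 (r = -0.39, -0.48 and -0.51), and whether its dye label is right could not be settled from the sources used here. The labelled direction is kept. An exchanged label would turn the sign of every ratio of that array, so the values that it moves are also given without it or with its sign turned. Levels averaged over both conditions of a line do not depend on that label.

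Cell type markers separated the lines. Of 8 mammary epithelial genes measured, 7 were lower in P114 than in CMT-U27 and none higher (adjusted p under 0.05 and fold over 2, limma). Of all probes tested, 24.2% differed between these 2 lines in either direction, and 28.9% between CMT-U27 and CMT-U309. Between CMT-U27 and CMT-U309, 7 were higher in CMT-U27, among them EPCAM and KRT19, and KRT14 was lower (log2 difference -1.53). Of 10 mesenchymal or myoepithelial genes, 8 were higher in P114 than in CMT-U27 and 8 were lower in CMT-U27 than in CMT-U309, VIM and COL1A1 among them. Of 17 myeloid genes measured, ITGAM, LYZ and SPI1 were well above background in none of the 12 channels. CD68, ITGB2, CD86 and S100A8 were well above background in all 12. None of the 17 passed an adjusted p of 0.05 for co-culture (limma), but neither did any of the 40873 probes tested, so this is not particular to myeloid genes. Between at least 1 pair of lines, 5 of the 17 differed (adjusted p under 0.05 and fold over 2, limma), against 39.4% of all probes. S100A8 and MPO were left out of a sum. The dimmer PTPRC, LAPTM5 and TYROBP stayed in it, although they differed between CMT-U27 and CMT-U309 (log2 -2.13, -1.59 and -1.16). The summed scaled intensity of the 15 without S100A8 and MPO was 1456 to 2051 in the co-culture channels and 1382 to 2025 in the monoculture channels. CD68 was the brightest of these 15 (log2 line means of 10.05 to 10.36), so the sum says little about the dimmer markers.

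The probes that carry the main results are shown next, 5′ to 3′ as printed on the array, with positions on canFam2. The probes of CSF1, CSF3 and KITLG span 1268, 415 and 672 genomic bases for their 60 bases, so each joins parts of more than 1 exon. For probes that lie in a single block the exon or UTR was not analysed here, and only the first 30 bases are given for PTGS2, PTGES and the brighter CSF2 probe. Both PTGES probes overlap by 45 bases, and capitals mark the shared bases within the stretch shown, so these 2 probes are not independent readings.
PTGS2, chr7:22632252-22632311, minus strand, first 30 bases: atgccgactgaattcggagtataatatatg
CSF3, chr9:25858514-25858928, minus strand: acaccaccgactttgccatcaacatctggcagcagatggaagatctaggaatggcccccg
CSF2, brighter probe, chr11:23351673-23351732, plus strand, first 30 bases: gataccagcttggtatggggagcggggaat
CSF2, other probe, chr11:23351419-23351478, plus strand: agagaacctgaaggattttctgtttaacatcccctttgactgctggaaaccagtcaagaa
CSF1, chr6:45096046-45097313, minus strand: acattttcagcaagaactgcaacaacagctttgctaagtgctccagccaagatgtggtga
KITLG, chr15:32613497-32614168, minus strand: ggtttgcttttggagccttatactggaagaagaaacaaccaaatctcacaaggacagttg
MIF, chr26:31707574-31707633, minus strand: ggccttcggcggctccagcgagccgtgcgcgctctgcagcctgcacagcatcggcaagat
PTGES, brighter probe, chr9:57426832-57426891, plus strand, first 30 bases: TAGAAAATCCTTCCACTCAAATACCAGAGC
PTGES, other probe, chr9:57426817-57426876, plus strand, first 30 bases: agatgtcaggattgcTAGAAAATCCTTCCA

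The first question was how the level of these genes differed between the 3 tumor lines. P114 stood out with high PTGS2, CSF3 and CSF1, CMT-U309 with high CSF2, and CMT-U27 was the lowest line for CSF2, PTGS1, PTGS2 and PTGES. Levels are log2 processed intensities after scaling every channel to a common median, and they compare lines for 1 probe but not 1 gene with another. Lines were compared with limma on the 6 RNAs, with line and condition as terms, and a difference was called at an adjusted p under 0.05 with a fold over 2. Of the 10 genes, 8 were called between P114 and CMT-U27 (6 higher and 2 lower in P114), against 24.2% of all probes tested. Between P114 and CMT-U309, 5 were called (3 higher and 2 lower in P114), against 14.5% of all probes, and between CMT-U27 and CMT-U309, 4 were called, all lower in CMT-U27, against 28.9%. The median size of the difference over the 10 genes was 1.39, 0.94 and 0.74 in these 3 comparisons, beside 0.59, 0.46 and 0.62 over all probes tested. The only RNAs of a line are its co-culture and its monoculture RNA, so the error of these tests is the spread between those 2 after the shared effect of co-culture, and no culture was repeated.

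**Figure D1:**
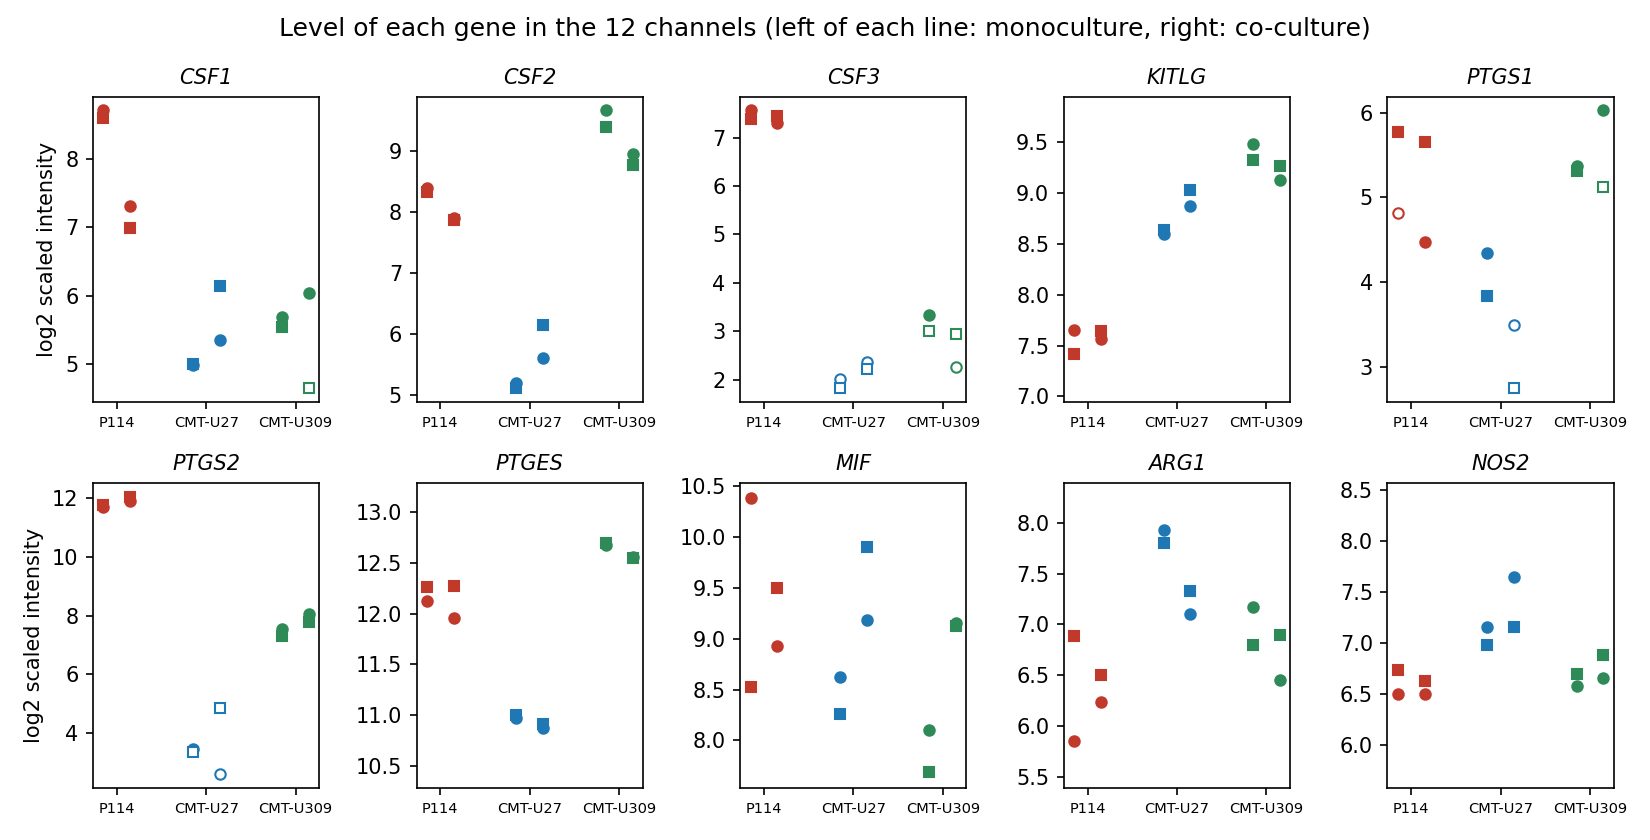
Level of the 10 genes (log2 scaled intensity, vertical axis, each panel with its own scale) in the 12 channels, by cell line, with monoculture left and co-culture right of each line's mark. Circles are arrays with co-culture in Cy5, squares arrays with co-culture in Cy3, and open symbols are channels not well above background; PTGS2 in P114 lies between 11.69 and 12.04 and in CMT-U309 between 7.30 and 8.05, and the lines do not overlap.

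PTGS2 had the widest range of the 10 genes. Its level in P114 was 11.69 and 11.75 in monoculture and 11.89 and 12.04 in co-culture. In CMT-U309 it was 7.55 and 7.30 in monoculture and 8.05 and 7.77 in co-culture. In CMT-U27 it was 3.47 and 3.38 in monoculture and 2.62 and 4.86 in co-culture, and only 1 of these 4 channels was well above background. No channel of one line overlapped those of another. The difference between P114 and CMT-U27 was 8.26 ± 0.17 (SE, log2; adjusted p = 9.11e-10), between P114 and CMT-U309 4.18 ± 0.17 (adjusted p = 8.44e-08), and between CMT-U27 and CMT-U309 -4.08 ± 0.17 (adjusted p = 4.40e-08). Because PTGS2 was close to background in CMT-U27, the size of its gap depended on how background was treated: with normexp background correction, which adds an offset of 50 to every spot, the 3 differences were 4.13, 3.18 and -0.95, and the last was no longer a fold over 2.

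CSF3 was measured in P114 and hardly elsewhere. Its level in P114 was 7.57 and 7.39 in monoculture and 7.32 and 7.44 in co-culture. In CMT-U309 it was 3.34 and 2.998 in monoculture and 2.26 and 2.93 in co-culture, with 1 of 4 channels well above background. In CMT-U27 it was between 1.83 and 2.36, and no channel was well above background, so only a bound is given: P114 was at least 25.5-fold higher than CMT-U27 (fitted log2 difference 5.32 ± 0.35, adjusted p = 1.17e-06). P114 exceeded CMT-U309 by 4.55 ± 0.35 (log2, adjusted p = 7.43e-06), while CMT-U27 and CMT-U309 were not called apart (-0.78 ± 0.35, adjusted p = 0.0928). With normexp the P114 differences were 1.24 and 1.20, both still called.

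CSF1 was highest in P114 too, and in the labelled direction its level there differed between the conditions. In P114 it was 8.71 and 8.60 in monoculture and 7.32 and 6.99 in co-culture. In CMT-U27 it was 4.99 and 5.00 in monoculture and 5.34 and 6.13 in co-culture, and in CMT-U309 5.68 and 5.54 in monoculture and 6.04 and 4.65 in co-culture. All 4 P114 channels lay above the other 8, and the other 2 lines overlapped. P114 exceeded CMT-U27 by 2.54 ± 0.42 (adjusted p = 0.000765) and CMT-U309 by 2.42 ± 0.42 (adjusted p = 0.00171), and CMT-U27 and CMT-U309 differed by -0.11 ± 0.42 (adjusted p = 0.852). In the monoculture channels alone, the P114 differences were 3.66 and 3.04, and these depend on the dye label of the P114 array with co-culture in Cy5.

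CSF2 had another order, with CMT-U309 at the top. In CMT-U309 its level was 9.66 and 9.39 in monoculture and 8.95 and 8.76 in co-culture. In P114 it was 8.39 and 8.33 in monoculture and 7.90 and 7.86 in co-culture, and in CMT-U27 5.20 and 5.12 in monoculture and 5.62 and 6.15 in co-culture. The 3 lines did not overlap. CMT-U27 was below CMT-U309 (log2 difference -3.67 ± 0.29, adjusted p = 4.66e-06), P114 was above CMT-U27 by 2.60 ± 0.29 (adjusted p = 6.42e-05), and P114 was below CMT-U309 by a smaller step (-1.07 ± 0.29, adjusted p = 0.0208). The second CSF2 probe, which lies 194 bases from the first, gave -3.46, 2.66 and -0.80 in the same order, and the last was not called (adjusted p = 0.0869). The P114 to CMT-U309 step was also lost with normexp, without an intensity trend in the test and without the arrays with co-culture in Cy5 (values between -1.07 and -0.69).

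KITLG was the only growth factor that was lowest in P114. Its level was 7.41 to 7.66 in P114, 8.60 to 9.02 in CMT-U27 and 9.13 to 9.48 in CMT-U309, and the lines did not overlap. P114 was below CMT-U27 (-1.21 ± 0.17, adjusted p = 0.000315) and below CMT-U309 (-1.73 ± 0.17, adjusted p = 5.49e-05). CMT-U27 was below CMT-U309 by a difference that passed the adjusted p but not the fold (-0.52 ± 0.17, adjusted p = 0.0328). With normexp the P114 to CMT-U27 difference was -0.77, under a fold of 2.

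**Figure D2:**
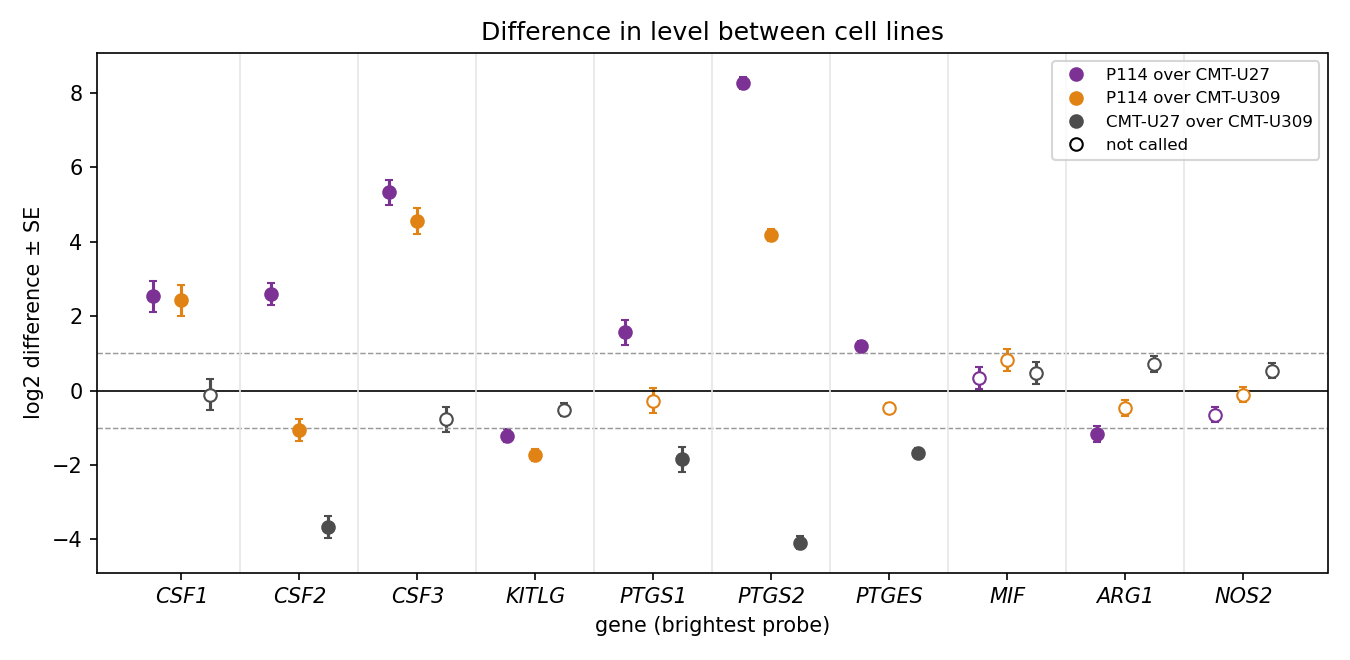
Difference in level between cell lines for the 10 genes (log2, points, with the standard error of the fit as bars), 3 comparisons a gene. Filled points were called (adjusted p under 0.05 and fold over 2, the latter drawn as dashed lines at -1 and 1); PTGS2 runs from -4.08 to 8.26, and no difference of MIF or of the brightest NOS2 probe was called.

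PTGES and PTGS1 were lowest in CMT-U27. PTGES was 11.95 to 12.27 in P114, 10.88 to 11.01 in CMT-U27 and 12.55 to 12.70 in CMT-U309, without overlap, and was well above background in all 12 channels. P114 exceeded CMT-U27 by 1.21 ± 0.13 (adjusted p = 4.06e-05), and CMT-U27 was below CMT-U309 (-1.68 ± 0.13, adjusted p = 3.30e-06). The overlapping second probe gave 1.19 and -1.54. With no scaling of the channels the first difference was 0.74, under a fold of 2.

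PTGS1 was dim, with 8 of 12 channels well above background. Its level was 4.48 to 5.77 in P114, 2.75 to 4.34 in CMT-U27 and 5.12 to 6.03 in CMT-U309, and P114 overlapped CMT-U309. P114 exceeded CMT-U27 by 1.57 ± 0.34 (adjusted p = 0.00386; 2.102 without the P114 array with co-culture in Cy5) and CMT-U27 was below CMT-U309 (-1.85 ± 0.34, adjusted p = 0.00122). With normexp these 2 differences were 0.28 and -0.31, and without the arrays with co-culture in Cy3 the first was 0.73 with an adjusted p of 0.214. The second PTGS1 probe was well above background in none of the 12 channels and did not pass the intensity filter.

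MIF, ARG1 and NOS2 differed least between lines. MIF, well above background in all 12 channels, was 8.52 to 10.38 in P114, 8.26 to 9.90 in CMT-U27 and 7.69 to 9.15 in CMT-U309; all lines overlapped, and the largest difference, P114 over CMT-U309, was 0.82 ± 0.30 (adjusted p = 0.0680). ARG1 was 5.86 to 6.88 in P114, 7.10 to 7.93 in CMT-U27 and 6.46 to 7.17 in CMT-U309. P114 was below CMT-U27 (-1.17 ± 0.21, adjusted p = 0.00148), and the call was lost, at -0.84, without the P114 array with co-culture in Cy5, at -0.87 without all 3 such arrays and at -0.50 with normexp. The 2 other ARG1 probes gave -0.99 (adjusted p = 0.00366) and -0.69 (adjusted p = 0.0717), neither a fold over 2.

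The probes of NOS2 disagreed. The brightest, well above background in all 12 channels, gave -0.64 ± 0.20 between P114 and CMT-U27 (adjusted p = 0.0249), under a fold of 2. A second probe, 149 bases away and well above background in 7 channels, was not measured above background in P114 and was at least 4.06-fold higher in CMT-U27 (fitted difference -2.19 ± 0.33, adjusted p = 0.000422). It was also called higher in CMT-U27 than in CMT-U309 (1.55 ± 0.33, adjusted p = 0.00315). The third was well above background in none of the 12 channels and was not tested.

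The fitted range from the lowest to the highest line was compared with that of all 40873 tested probes, as a description. It exceeded 95.35% of probes for CSF2 (3.67) and 91.26% for CSF1 (2.54), both well above background in at least 11 channels. For PTGS2 (8.26, above 99.59%) and CSF3 (5.32, above 97.83%) the low end was CMT-U27, where 1 and 0 of 4 channels were well above background, so these ranks rest on signals at background and their order is not firm; with normexp the PTGS2 gap was 4.13 and the CSF3 gap 1.24. The range of PTGS1, KITLG and PTGES lay above 81.61% to 84.51% of probes. ARG1 (65.42%), MIF (44.36%) and the brightest NOS2 probe (31.58%) were closer to the middle, where the median range of all probes was 0.90, while the second NOS2 probe (2.19, with P114 not above background) exceeded 88.65%.

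**Figure D3:**
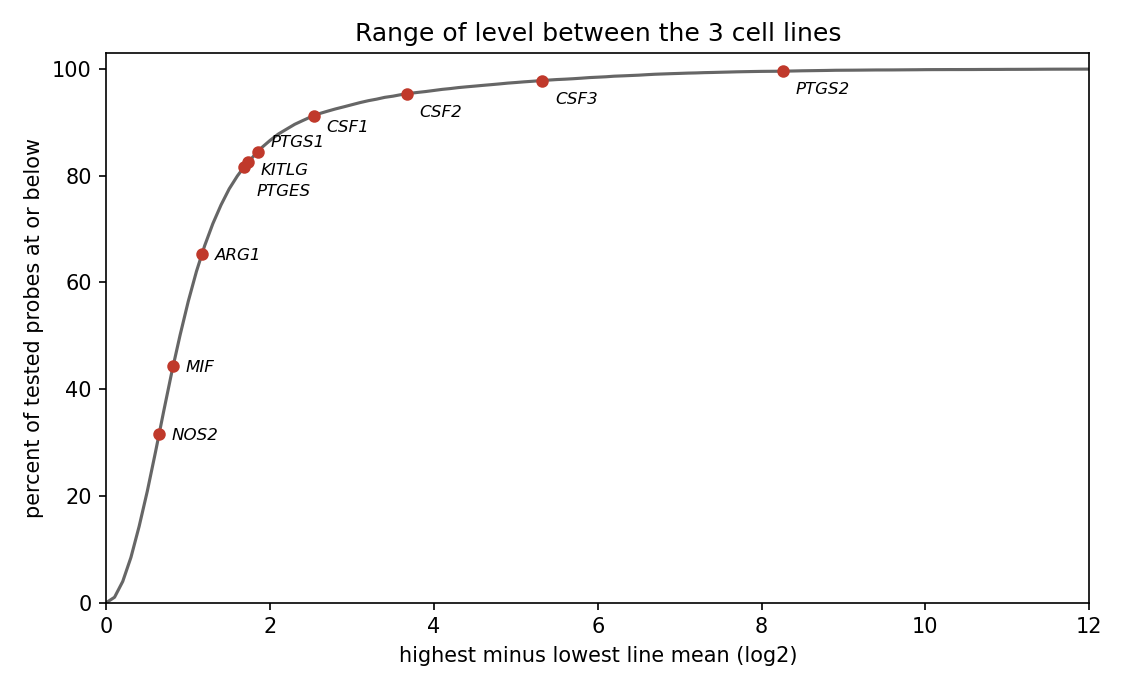
Range of the level between the 3 cell lines (highest minus lowest line mean, log2, horizontal axis) against the percent of the 40873 tested probes at or below it (curve), with the brightest probe of the 10 genes as points. PTGS2, CSF3, CSF2 and CSF1 lie above at least 91.26% of probes, PTGS2 and CSF3 with a low end at background in CMT-U27, and NOS2 and MIF lie below the median of 0.90.

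Among genes with a symbol, well above background in all 12 channels and with a range of at least 50% of its own, 127 were compared with PTGS2 over the 6 RNAs. The 3 most like it were STC1 (stanniocalcin, a secreted glycoprotein; r = 0.998), PLAU (urokinase, which activates plasmin; r = 0.994) and CHCHD7 (r = 0.990). Their line means fell in the same order as PTGS2: STC1 was 13.65 in P114, 8.82 in CMT-U309 and 4.80 in CMT-U27. The 6 RNAs hold 3 lines, so these coefficients describe 3 line levels.

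The second question was whether co-culture with MDSCs changed these genes. None of the 10 passed an adjusted p of 0.05 (limma on the 3 line means against 0), against 0% of all probes tested, where the smallest adjusted p was 0.230. At unadjusted p under 0.05, PTGS2 and MIF passed (2 of 10, against 9.94% of all probes); by the methods' t-test these were PTGS2 and PTGES, against 6.38% of all probes. With normexp and loess only ARG1 passed, and without an intensity trend or from the arrays with co-culture in Cy5 alone none did. With the methods' thresholds (p under 0.05 before adjustment, fold over 2), none of the 10 passed, against 1.22% of all probes. Their median log2 ratio was -0.10, beside 0.01 over all probes. By sign alone, 5 of the 10 (CSF1, CSF2, CSF3, KITLG and NOS2) were above 0 on both arrays of one line and below 0 on both arrays of another, against 22.7% of all probes, but CSF3 was near background in both lines concerned and NOS2 in P114 was at -0.001 and -0.11. None had the same sign on all 6 arrays, against 4.26%. With the P114 array turned these counts were 4, against 19.0%, and 1 (MIF), against 14.2%.

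**Figure D4:**
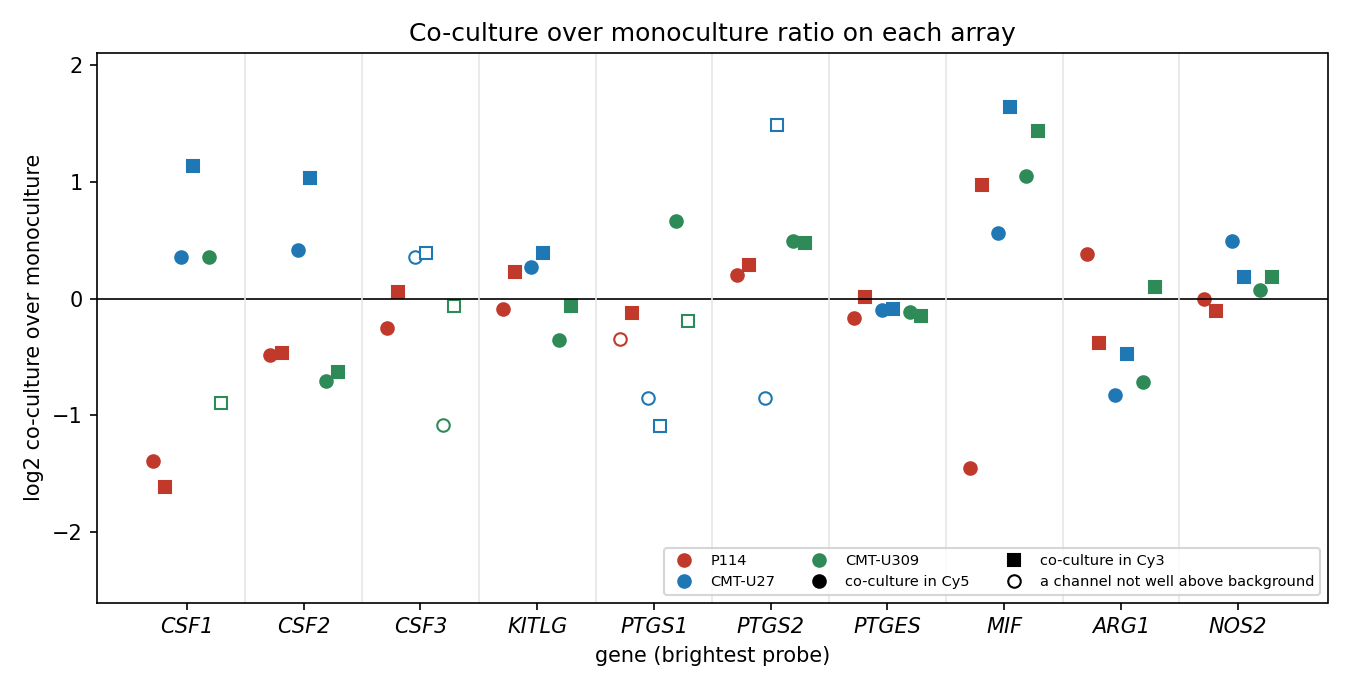
Co-culture over monoculture ratio (log2, vertical axis) of the 10 genes on each of the 6 arrays, by cell line (colour) and by the dye of the co-culture RNA (circle Cy5, square Cy3). Open symbols are arrays where at least 1 channel was not well above background; CSF1 in P114 (-1.39 and -1.61) and MIF in CMT-U27 and CMT-U309 (0.56 to 1.64) are far from 0 on both arrays, as are PTGS1 in CMT-U27 (-0.85 and -1.09, co-culture not well above background) and CSF2 in CMT-U309 (-0.71 and -0.63). The P114 arrays of MIF lie on opposite sides. All ratios are drawn in the labelled direction.

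Dye-exchanged arrays agreed in sign in 21 of 30 pairs for the 10 genes. By line these were 5 of 10 in P114, 9 of 10 in CMT-U27 and 7 of 10 in CMT-U309, beside 38.6%, 62.7% and 52.0% of all probes. With the P114 array turned, P114 agreed in 5 of 10 as well (other genes), beside 61.3% of all probes. Each ratio below is therefore given for the array with co-culture in Cy5 first and then for the array with co-culture in Cy3.

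MIF had the largest mean ratio of the 10 genes. It was 0.56 and 1.64 in CMT-U27 and 1.05 and 1.44 in CMT-U309, higher in co-culture on all 4 arrays. In P114 it was -1.45 and 0.97, where monoculture read 10.38 and 8.52 and co-culture 8.93 and 9.50. Over the 3 lines the mean was 0.70 ± 0.24 (SE, n = 3; adjusted p = 0.498, limma). Without that P114 array, a choice made after seeing the data, it was 1.11 ± 0.13 with an adjusted p of 0.0315, where 0.0538% of all probes passed (6.23% at the methods' thresholds, which MIF then passed too). Without P114 altogether it was 1.17 ± 0.11 (adjusted p = 0.000152), where 15.6% of all probes passed (6.55% at the methods' thresholds), and from the 3 arrays with co-culture in Cy3 alone 1.35 ± 0.16 (adjusted p = 0.00295), where 7.18% passed (13.7% at the methods' thresholds). From the 3 arrays with co-culture in Cy5 alone it was 0.05 ± 0.37. With the sign of that P114 array turned, also tried after seeing the data, it was 1.19 ± 0.12 (adjusted p = 0.000942), where 8.02% of all probes passed (6.03% at the methods' thresholds). Over its 16 alternatives the adjusted p of MIF lay between 0.000152 and 1.00, and the call was made in these 4. CD74, which binds MIF, was the only gene of the wider lists to pass the methods' thresholds (1.09 ± 0.39, adjusted p = 0.498), but it was well above background only in the 4 CMT-U27 channels.

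PTGS2 was 0.20 and 0.29 in P114 and 0.49 and 0.47 in CMT-U309, small and, in the labelled direction, alike on both arrays of each line. In CMT-U27, where co-culture was not well above background on either array, it was -0.85 and 1.49. The mean over lines was 0.35 ± 0.14 (adjusted p = 0.498, limma). From the 3 arrays with co-culture in Cy5 alone the mean was -0.05. With the P114 array turned, the P114 arrays of PTGS2 had opposite signs and the mean was 0.28 ± 0.14 (adjusted p = 0.213, limma).

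In the labelled direction, CSF1 moved most within a single line. It was lower in co-cultured P114 on both arrays (-1.39 and -1.61), higher in CMT-U27 on both (0.36 and 1.14), and 0.36 and -0.89 in CMT-U309, where co-culture on the Cy3 array was not well above background. The mean was -0.34 ± 0.34 (adjusted p = 0.702), 0.24 without P114 and 0.12 with the P114 array turned. With that array turned, the P114 arrays of CSF1 had opposite signs, so the direction in P114 rests on its dye label. A single line has no replicate culture, so the P114 value has no test.

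CSF2 was lower in co-culture on both arrays of P114 (-0.48 and -0.47) and of CMT-U309 (-0.71 and -0.63), and higher on both of CMT-U27 (0.42 and 1.03). The second probe had the same signs on all 6 arrays (-0.24 and -0.86 in P114, 1.07 and 0.52 in CMT-U27, -0.44 and -0.23 in CMT-U309), although in CMT-U27 its co-culture channels were not well above background. The 3 lines averaged to -0.14 ± 0.24 (adjusted p = 0.836).

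For CSF3 and KITLG the ratios were small where they could be measured. CSF3 in P114 was -0.25 and 0.05, in CMT-U27 neither condition was well above background, and in CMT-U309 1 monoculture channel was (-1.08 and -0.07). KITLG, bright (well above background) in every channel, was -0.09 and 0.22 in P114, 0.27 and 0.39 in CMT-U27 and -0.35 and -0.06 in CMT-U309. The means were -0.10 ± 0.28 for CSF3 (adjusted p = 0.906) and 0.06 ± 0.14 for KITLG (adjusted p = 0.876).

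PTGES was the gene with the narrowest spread of ratios. It was -0.17 and 0.01 in P114, -0.10 and -0.09 in CMT-U27 and -0.11 and -0.15 in CMT-U309, with a mean of -0.10 ± 0.10 (adjusted p = 0.712) and an SD between lines of 0.03. The overlapping probe was less even, from -0.48 to 0.21 over the 6 arrays (mean -0.09 ± 0.12, adjusted p = 0.776). PTGS1 was -0.35 and -0.12 in P114, -0.85 and -1.09 in CMT-U27 and 0.66 and -0.19 in CMT-U309 (mean -0.32 ± 0.27, adjusted p = 0.657). In CMT-U27 the co-culture channels of PTGS1 were not well above background. With the normalization used for bounds, monoculture was 1.60-fold higher, with no test in 1 line. This is the observed fold and not a bound, since co-culture lay no lower than the lowest signals well above background.

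ARG1 was 0.38 and -0.38 in P114, -0.83 and -0.47 in CMT-U27 and -0.71 and 0.10 in CMT-U309 (mean -0.32 ± 0.17, adjusted p = 0.528), and without the P114 array with co-culture in Cy5 the mean was -0.45 ± 0.17 (adjusted p = 0.185). NOS2 was -0.001 and -0.11 in P114, 0.49 and 0.18 in CMT-U27 and 0.07 and 0.18 in CMT-U309 (mean 0.14 ± 0.16, adjusted p = 0.748). The dimmer probes of ARG1 gave -0.04 and -0.14 and that of NOS2 0.18, none of which passed.

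The other genes of these pathways were read from the same fits by their brightest probe. None of them passed an adjusted p of 0.05 for co-culture (limma). Called between at least 1 pair of lines, against 39.4% of all probes, were 8 of 12 myeloid growth factor receptors and related cytokines, 12 of 24 prostanoid genes, 10 of 18 genes of arginine and nitric oxide metabolism and 12 of 16 other tumor-cell factors for myeloid suppressor cells.

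Among receptors, KIT, the receptor of KITLG, was at least 18.4-fold higher in CMT-U27 than in P114, where it was not well above background, and exceeded CMT-U309 by 4.67 (log2). CD74 was at least 611-fold higher in CMT-U27 than in P114 and at least 874-fold higher than in CMT-U309. CXCR4 was at least 35.4-fold higher in CMT-U27 and at least 9.32-fold higher in CMT-U309 than in P114. CD44, which pairs with CD74, was higher in P114 than in CMT-U27 (1.86) and CMT-U309 (1.81), IL34, the second ligand of the CSF1 receptor, was higher in CMT-U27 than in CMT-U309 (2.94), and CSF1R itself was well above background in 2 of 12 channels. FLT3 was at least 2.71-fold higher in CMT-U309 than in CMT-U27, where it was not well above background, and CXCR2, also dim, was lower in CMT-U27 than in CMT-U309 (-2.44). In co-culture, CD44 had the largest ratio of the receptors bright in every channel (0.32 ± 0.14, adjusted p = 0.498).

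In the prostanoid pathway, PLA2G4A, the phospholipase that frees arachidonic acid, followed PTGS2 in being highest in P114 (1.09 over CMT-U27 and 2.18 over CMT-U309). PTGER2, a receptor of prostaglandin E2, was not well above background in P114 and was at least 17.4-fold higher in CMT-U27 and at least 22.7-fold higher in CMT-U309. ALOX5, which sends arachidonic acid to leukotrienes, was at least 40.3-fold higher in CMT-U27 than in P114 and exceeded CMT-U309 by 5.26. PTGES2, another prostaglandin E synthase, was lower in P114 than in CMT-U27 (-2.27) and higher in CMT-U27 than in CMT-U309 (2.49), the opposite order to PTGES. PTGER3 was higher in P114 than in CMT-U27 (1.31) and PTGDS lower in P114 than in CMT-U309 (-2.47). ABCC4, an exporter of prostaglandins, had the largest co-culture ratio among those bright in every channel (-0.35 ± 0.15, lower on 6 of 6 arrays, adjusted p = 0.498).

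In arginine metabolism, ARG2, the mitochondrial arginase, was higher in CMT-U27 than in P114 (P114 over CMT-U27 -1.83) and than in CMT-U309 (2.49). GCH1 and SPR, which act in making the cofactor of nitric oxide synthases, were also higher in CMT-U27 (3.26 and 2.07 over CMT-U309). ASL, which forms arginine, was lower in CMT-U27 than in P114 (P114 over CMT-U27 2.34) and than in CMT-U309 (CMT-U27 over CMT-U309 -2.49). PTS, which also acts in making the cofactor of nitric oxide synthases, was lower in CMT-U27 than in CMT-U309 (-1.18) and higher in P114 than in CMT-U27 (1.79). ASS1 was higher in P114 than in CMT-U27 (1.15) and CMT-U309 (1.04). GCH1 had the largest co-culture ratio among those bright in every channel (-0.31 ± 0.13, adjusted p = 0.498).

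Among the other factors that act on myeloid suppressor cells, IL8, a neutrophil chemokine, was higher in P114 than in CMT-U27 (5.08), as were SPP1 (3.26) and TGFB1 (2.60), and CXCL12, S100A9 and S100A8 were lower in P114 than in CMT-U27 (CXCL12 at least 31.2-fold, S100A9 -4.55, S100A8 -4.31). LGALS9 was lower in P114 than in CMT-U309 (-5.77), and SPP1 at least 71.0-fold higher. CXCL10 was higher in CMT-U27 than in CMT-U309 (4.53) and in P114 than in CMT-U309 (1.64). IL6 was at least 3.08-fold higher in P114 and at least 4.58-fold higher in CMT-U309 than in CMT-U27. TGFB1 had the largest co-culture ratio of the list (0.57 ± 0.18, higher on 5 of 6 arrays, adjusted p = 0.498, limma).

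Of the 17 line differences called among the 10 genes, 10 were called under every alternative tried, among them every difference of PTGS2, CSF3 and CSF1 from P114. One alternative kept only probes with at least 1 channel well above background on every array, and PTGS2 and CSF3 could not be fitted there.

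**Figure D5:**
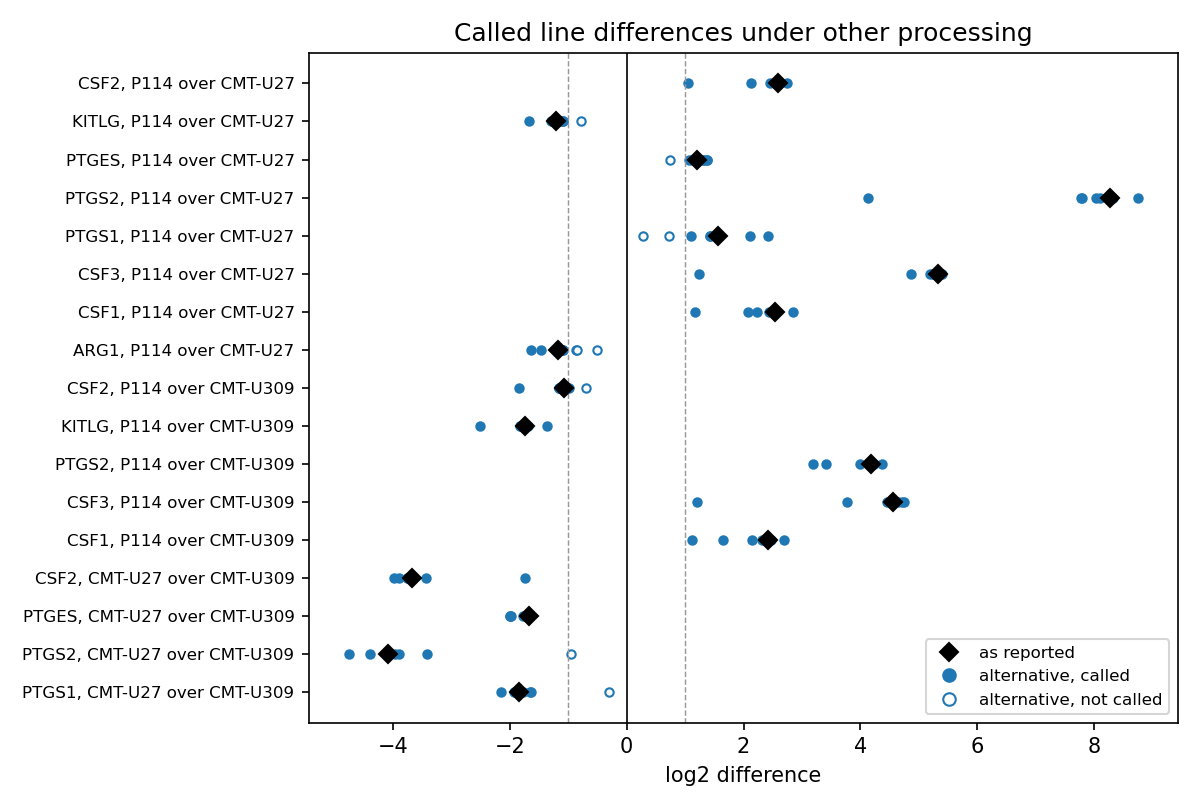
The 17 called line differences (log2, horizontal axis) as reported (diamonds) and under the other processing choices (circles, open where the call was lost; dashed lines mark a fold of 2). No value crosses 0, and the circles nearest to 0 in 15 of the 17 are those of normexp background correction.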

How the data were processed

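RNA of 3 canine mammary tumor lines, each in monoculture and in co-culture with MDSCs, was measured on 6 two-colour Agilent arrays (43603 non-control probes, canFam2 positions). The deposited files were scanner outputs of Feature Extraction, version 10.10.1.1 per the file headers (10.7.3.1 in the submitters' processing notes). The deposited intensities were processed signals that the authors' scanner software had background-subtracted and dye-normalized, and the deposited log10 ratios of the series table were the same arrays turned to co-culture over monoculture. Samples were grouped by the labels, and the 2 arrays of a dye exchange were averaged before any test.

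Here each channel's processed signal was scaled to a common median and log2 transformed. Probes whose highest intensity was 10 or less were left out, which left 40873. Co-culture was tested with limma (version 3.58.1, R 4.3.3; intensity trend) on the 3 line means against 0, and lines were compared on the 6 RNAs with line and condition as terms, with Benjamini-Hochberg adjustment over all probes tested. A fold that rests on a group not well above background is given as a bound against the lowest signals well above background, except for PTGS1 in CMT-U27. These bounds were not computed on the median-scaled signals. They used loess normalization within arrays and quantile normalization of mean intensities between arrays, with outlier spots kept. Symbols were matched without regard to case, all 10 genes and all their probes are named, and of each other list at most the 3 genes with the largest called difference in each direction, or, where none was called, the 1 with the largest change among genes bright in every channel. Not every gene this rule allows is named. CSF1R and the IL6 difference between P114 and CMT-U27 fall outside it and were chosen after their values were seen. The members and lists were chosen with earlier results of these data known. The alternatives were other background corrections and normalizations, filters, tests, fits to single arrays or channels with dye as a term, the second probes and leaving out lines or arrays. Leaving out the P114 array with co-culture in Cy5, turning its sign and quantile normalization were added after seeing the data. The number of arrays limits the precision.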

Additional observations from a re-analysis of the deposited data

Results flagged for a closer look

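For 5 of the 10 genes, the co-culture ratio had one sign on both arrays of one line and the other sign on both arrays of another, as in 22.7% of all probes. These differences between lines were not tested, since each line had 1 RNA for each condition. CSF1 had a line mean of -1.50 in P114 and 0.75 in CMT-U27 (log2, co-culture over monoculture), the widest gap of the 5. CSF2 was at -0.48 in P114 and -0.67 in CMT-U309 but at 0.72 in CMT-U27. KITLG was at 0.33 in CMT-U27 and -0.21 in CMT-U309. CSF3 ratios (0.37 for CMT-U27, -0.57 for CMT-U309) had opposite signs too, but 1 of the 8 channels concerned was well above background, so no direction is read from them. For NOS2 the P114 mean was -0.053, close to 0 on one array, beside 0.34 for CMT-U27 and 0.13 for CMT-U309. The P114 means rest on the labelled direction of the array with co-culture in Cy5. With that array turned, the genes with opposite signs were CSF2, CSF3, KITLG and PTGES, against 19.0% of all probes, and CSF1 was not among them.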

How the results depend on the processing

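The number of the 10 genes called for co-culture was 0 as reported and 1 (MIF) without P114, without replicate 1 (the arrays with co-culture in Cy5) and without the P114 array of replicate 1, a range of 0 to 1, and 1 with the sign of that array turned, and the same at the thresholds of the methods. For the other pathway genes at those thresholds the count was 1 as reported. It was 0 with normexp and loess, with probes well above background on every array, with the ordinary t-test and without an intensity trend. When a line or replicate was left out, it was 0 to 9 (4 without the P114 array of replicate 1, and 4 with it turned). Of all probes, 1.22% passed as reported and 13.7% without replicate 1, where the count was 9. Without that P114 array 6.23% passed, and 6.03% with it turned. Between P114 and CMT-U27, 5 of the 10 genes were called with normexp in place of 8, while the count over all 40873 probes fell from 9894 to 3631. Between P114 and CMT-U309, 8 were called without scaling in place of 5, while the count over all probes rose from 5943 to 11847. With probes well above background on every array, 3 of the 8 genes that could be tested were called, beside 3755 of 26994 probes. Between CMT-U27 and CMT-U309, 2 were called with normexp in place of 4, and over all probes 4267 in place of 11826. Leaving out a replicate gave 7 and 4 to 5 and 4 calls in these 3 comparisons. Of the other pathway genes, 25 were called between any lines with probes well above background on every array, in place of 42 (40 to 47 when a replicate was left out). That filter tested 26994 probes in place of 40873. Without scaling, the median difference of all probes moved from 0.15 to -0.31 (P114 over CMT-U27), from 0.15 to -0.63 (P114 over CMT-U309) and from 0.04 to -0.27 (CMT-U27 over CMT-U309).

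Co-culture ratios that changed sign when a line was left out ran from -0.88 (without CMT-U27) to 0.24 (without P114) for CSF1, from -0.57 (without CMT-U27) to 0.12 (without CMT-U309) for CSF2 (0.027 without P114), from -0.34 (without CMT-U27) to 0.14 (without CMT-U309) for CSF3 (0.13 without replicate 1), from -0.070 (without CMT-U27) to 0.20 (without CMT-U309) for KITLG (-0.055 without replicate 2), and from -0.60 (without CMT-U309) to 0.00097 (without CMT-U27) for PTGS1. PTGS2 ran from -0.053 (without replicate 2) to 0.75 (without replicate 1). With the P114 array of replicate 1 turned, CSF1 was at 0.12 and CSF2 at 0.021. With normexp, KITLG was at -0.049 and PTGS1 at 0.025. No called line difference changed sign. Those not called that did were MIF in P114 over CMT-U27 (-0.13 without scaling, -0.071 without replicate 1, 0.75 without replicate 2), PTGS1 in P114 over CMT-U309 (0.49 without replicate 1, 0.25 without its P114 array, -1.05 without replicate 2) and CSF1 in CMT-U27 over CMT-U309 (0.47 without replicate 1, -0.70 without replicate 2). The cause was not tested. The replicate numbers mark the dye orientation and not a shared culture, and arrays of the same number correlated at -0.22 to 0.40 (replicate 1) and 0.47 to 0.61 (replicate 2). In a fit to single arrays with dye orientation as a term, 0 of the 10 genes were called for co-culture. That fit took each array of a dye exchange as a separate observation. A fit to single channels, with the channels of 1 RNA as a block and dye as a term, called 8, 5 and 4 between the lines. These counts were the same as in the main fits.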
